A study of Mus musculus with 2 samples.

Results

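The genes described here are those that break down heme or carry it inside the cell: the heme oxygenases Hmox1 and Hmox2, the biliverdin reductases Blvra and Blvrb, and the heme-binding protein gene Hebp1. They were chosen by symbol, matched to the gene identifiers of the tables without their version, and are 5 of 43346 mouse genes measured, with 20 annotated transcripts among them. RNA selected for poly(A) tails was sequenced from both fragment ends in G1E-ER4, an immortalized mouse erythroid line in which GATA1 activity has been restored in a form that estradiol switches on. Both libraries, biological replicates 1 and 2, came from cells given 10 nM 17beta-estradiol for 24 h to start erythroid differentiation, and every value below is from this 1 condition. The labels give both libraries the same biosample record and do not say whether they were separate cultures, so differences between replicates may be technical in part or in whole. An untreated sample was not analysed here.

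Heme oxygenase opens the heme ring and releases iron, carbon monoxide and biliverdin, and biliverdin reductase then turns biliverdin into bilirubin. Hmox1 is the form that heme and oxidants induce, while Hmox2 is the constitutive form. Blvra is the classical biliverdin reductase, and Blvrb is a reductase of biliverdin and of flavins that is abundant in red cells. Hebp1 encodes a small cytosolic protein that binds heme and other porphyrins. Erythroid cells are known for making heme in bulk for hemoglobin, whereas most of the heme of worn-out red cells is degraded by macrophages.

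Replicate 1 held 70451042 estimated counts and replicate 2 held 13841487, so replicate 1 was 5.09 times as deep. Paired values below are given with replicate 1 first. Counts scaled to library size are written as CPM, and 0 counts allowed up to 0.0426 and 0.217 CPM if the limit is set at 3 counts. Intervals and limits cover counting error only, because no molecular identifiers are named in the labels. Gata1, the restored factor of this line, had 3038 and 2940 TPM. TPM is a level per length of transcript, scaled so that each library has the same sum. The reads of the Gata1 entry may come from the introduced form, in part or in whole. All 8 erythroid markers listed reached 1 TPM in both. The labels give the donor as male, but the Y-linked genes Kdm5d, Ddx3y and Usp9y were at 0 counts in each. Among markers of other cell types, 0 of 9 for macrophages and 0 of 3 for hepatocytes reached 1 TPM in both. For mast cells and for neutrophils 0 of 3 each did so, against 2 of 3 for megakaryocytes. These 2 were low: Gp9 had 2.02 and 4.33 TPM, and Itga2b had 3.32 and 3.27 TPM. The other megakaryocyte marker, Pf4, had 0 counts in both.

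Blvrb was annotated with a pair of starts, and by estimated transcript shares the libraries differed in which of them led. The windows around them are shown because the transcript values below turn on which start a transcript carries. Both are RefSeq windows on GRCm38.p6, plus strand, written 5′ to 3′, with 250 bases before the start and 50 from it. The upstream window lies at chr7:27447728-27448027 and the downstream window at chr7:27452168-27452467, and capitals mark the GC box letters GGGCGG or their reverse complement CCGCCC.
Blvrb upstream start: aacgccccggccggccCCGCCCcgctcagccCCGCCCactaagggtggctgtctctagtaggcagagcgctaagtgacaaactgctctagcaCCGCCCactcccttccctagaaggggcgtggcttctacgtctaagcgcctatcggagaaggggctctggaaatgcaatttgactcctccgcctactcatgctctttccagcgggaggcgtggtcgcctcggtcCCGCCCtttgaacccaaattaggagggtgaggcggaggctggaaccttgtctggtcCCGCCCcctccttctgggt
Blvrb downstream start: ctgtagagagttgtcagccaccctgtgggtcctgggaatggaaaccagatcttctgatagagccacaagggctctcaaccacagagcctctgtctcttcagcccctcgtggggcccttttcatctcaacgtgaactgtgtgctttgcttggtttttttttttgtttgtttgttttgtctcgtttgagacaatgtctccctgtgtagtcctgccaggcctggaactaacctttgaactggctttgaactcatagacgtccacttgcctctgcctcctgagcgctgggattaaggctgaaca

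The windows differ in base composition. The upstream window holds 5 GC box matches, 20 CG dinucleotides and 63% G and C, whereas the downstream window holds 0 matches, 5 CG dinucleotides and 50% G and C. Over all 32851 RefSeq windows of the same length, 35.66% hold a GC box on either strand, with medians of 7 CG dinucleotides and 52.67% G and C. The GATA letters AGATAA and TGATAA, on either strand, were in neither Blvrb window, against 11.18% and 9.053% of all windows. Windows were found for 4 of the 5 genes: 3 for Hmox2, 2 for Blvrb, and 1 each for Blvra and Hebp1. A match is a description of the letters, and the absence of letters from a window says nothing about a factor.

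Heme oxygenase transcripts came mostly from Hmox1. Hmox1 (ENSMUSG00000005413.7, mm10 chromosome 8, 75093621 to 75100589, plus strand) stood at 45.27 and 19.45 TPM, a level of 32.4 ± 18.3 TPM (SD, n = 2). Its counts were 3020 (exact 95% Poisson interval 2913 to 3130) and 280 (248 to 315). Hmox2 (ENSMUSG00000004070.11, chromosome 16, 4726361 to 4766742, plus strand) had 0.96 and 3.15 TPM, or 2.06 ± 1.55 TPM, from 96 (77.8 to 117) and 19 (11.4 to 29.7) counts. Hmox1 was therefore 47.2 times as high as Hmox2 per length in replicate 1 and 6.17 times in replicate 2. The log2 ratio of Hmox2 to Hmox1, with 0.1 TPM added to each, was -4.00 ± 2.00 (n = 2). The inducible gene led in both libraries, but the size of its lead rested on 96 and 19 counts of Hmox2. With 2 libraries a two-sided exact sign-flip test cannot go below p = 0.5, so this ratio and those that follow carry no test.

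Hmox2 lies across Cdip1, a protein-coding gene on the opposite strand that held 2562 and 489 counts. The text deposited with the tables lists signal tracks by strand, but no source used here says whether the counts used strand, so reads of the overlapping parts of Hmox2 and Cdip1 may not have been told apart. Macrophages also make Hmox1, and beside its level their 9 markers summed to 0.580 and 0.920 TPM, nearly all of it from Cd68. Of these markers 7, among them Cd163 and Csf1r, were at 0 counts in both libraries. In bulk RNA, fewer cells with much of a transcript and less of it per cell cannot be told apart.

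Of the transcript of Blvra and Blvrb, nearly all was Blvrb. Blvrb (ENSMUSG00000040466.11, chromosome 7, 27447978 to 27466144, plus strand) stood at 3584.14 and 2946.46 TPM. Its level was 3265 ± 451 TPM, from 202308 (201427 to 203192) and 23354 (23055 to 23656) counts. By TPM it was at rank 21 of all genes in replicate 1 and at rank 48 in replicate 2. Blvra (ENSMUSG00000001999.11, chromosome 2, 127070665 to 127097084, plus strand) had 2.38 and 1.04 TPM, or 1.71 ± 0.948 TPM, from 166 (142 to 193) and 12 (6.20 to 21.0) counts. Blvrb exceeded Blvra 1506-fold in replicate 1 and 2833-fold in replicate 2, a log2 ratio of 10.92 ± 0.59. In each library the gap between these reductases was wider than any replicate difference of either gene.

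The reductases together exceeded the oxygenases together. Summed Blvra and Blvrb stood at 3587 and 2948 TPM, and summed Hmox1 and Hmox2 at 46.2 and 22.6 TPM. Their log2 ratio was 6.65 ± 0.53 (n = 2), or 77.6-fold in replicate 1 and 130-fold in replicate 2. This compares transcript levels per length and not amounts of enzyme. Which forms of biliverdin each reductase acts on was not examined, so these ratios do not measure how much bilirubin can be made. The excess came from Blvrb: Blvra alone, at 2.38 and 1.04 TPM, was below Hmox1, at 45.27 and 19.45 TPM.

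Hebp1 differed more between the libraries than the other 4 genes did. Hebp1 (ENSMUSG00000042770.7, chromosome 6, 135137522 to 135198022, minus strand) stood at 56.8 and 7.40 TPM, or 32.1 ± 34.9 TPM. Its counts were 3560 (3444 to 3679) and 77 (60.8 to 96.2). In replicate 1 it stood above Hmox1, and in replicate 2 below it, so the order of these genes was not fixed by the data. The span of Hebp1 meets Fam234b on the opposite strand at 135197977, whereas its named transcript Hebp1-201 starts at 135168215 and does not reach it. Its relative Hebp2 had 0 counts in both libraries. No fold is given for that pair, as Hebp2 was at the limit in each.

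**Figure D1:**
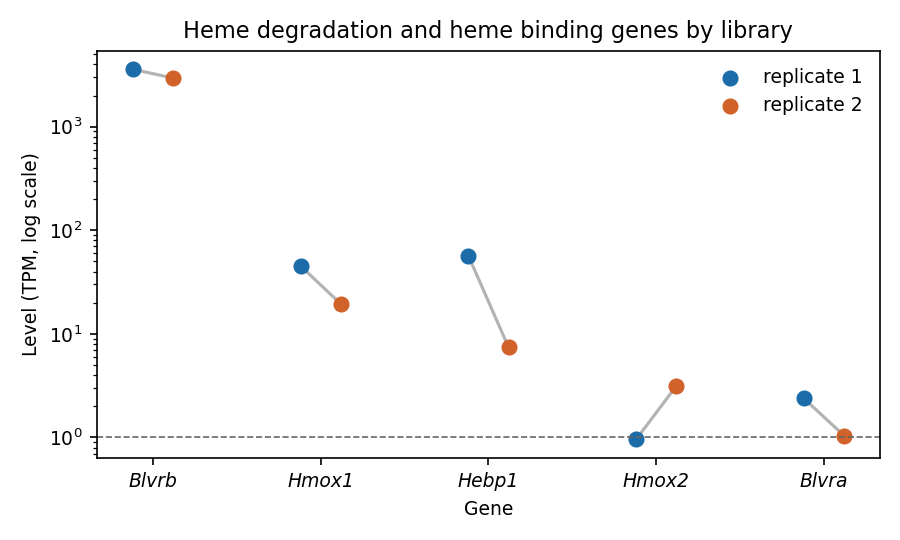
Level of each gene in TPM (log scale) in replicate 1 (blue) and replicate 2 (orange), with a dashed line at 1 TPM. Blvrb lies at 3584.14 and 2946.46 TPM, Hmox1 and Hebp1 between 7.40 and 56.8 TPM, and Hmox2 and Blvra at or below 3.15 TPM.

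Hmox1, Blvra, Blvrb and Hebp1, 4 of the 5 genes, had 1 TPM or more in each library, while Hmox2 fell short in replicate 1. Of all genes 17.2% had that level in each. By rank of level the order was Blvrb, Hebp1, Hmox1, Blvra and Hmox2 in replicate 1, and Blvrb, Hmox1, Hebp1, Hmox2 and Blvra in replicate 2. Blvrb was first in both, and Hmox1 with Hebp1, and Hmox2 with Blvra, traded places within their pairs. Among the 7444 genes detected in both libraries, Blvrb was at the 99.7th and 99.4th percentile, Hmox1 at the 71.0th and 56.0th, Hebp1 at the 75.3rd and 35.2nd, and Blvra at the 7.43rd and 0.497th.

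To compare the libraries apart from depth, counts were scaled by TMM, the trimmed mean of M-values, and expressed as CPM. A gene was called different at 2-fold or more. Of 8884 genes with a mean of at least 1 CPM, 30.0% were called lower in replicate 2 and 17.9% higher. Of the 5 genes here, Hebp1 and Blvra were called lower and 0 were called higher. With 5 genes this count does not stand apart from the background, and it compares libraries of 1 condition. The number called lower was 1 with DESeq2 size factors and 3 with total counts. Over all genes, 2533 of 8881 were called lower with DESeq2 size factors and 3570 of 8895 with total counts. With total counts 79.1% of all calls were in the lower direction, against 62.6% with TMM.

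Hebp1 was 6.89-fold lower in replicate 2, at 44.0 against 6.39 CPM, a log2 ratio of -2.79 (exact 95% interval -3.13 to -2.46). It was at the 6.33rd percentile of the ratios of all tested genes, whose median was -0.20. Blvra stood at -1.04 (-2.03 to -0.20) with 2.05 and 0.995 CPM. Its interval spans the 2-fold line, and with DESeq2 size factors its ratio was -0.98, short of 2-fold. Hmox1 was at -0.69 (-0.87 to -0.51), Blvrb at -0.37 (-0.39 to -0.35) and Hmox2 at 0.41 (-0.38 to 1.13). The interval of Hmox2 includes no difference. Hebp1 was the 1 gene of the 5 whose whole interval lay beyond 2-fold. Those of Hmox1 and Blvrb lay whole within 2-fold, and those of Blvra and Hmox2 crossed it.

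**Figure D2:**
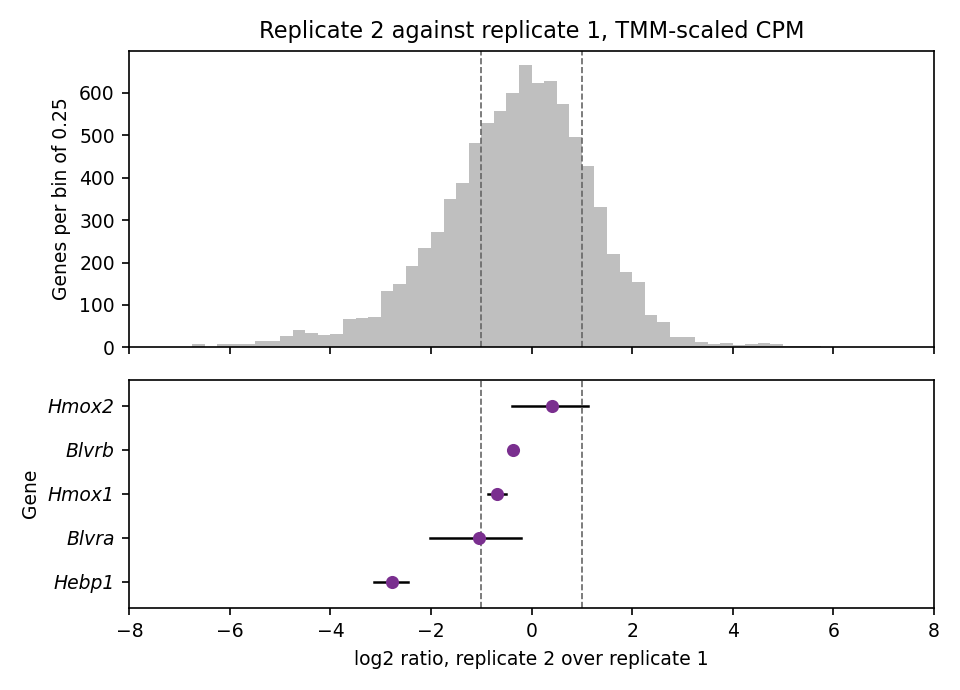
Top, number of genes by log2 ratio of replicate 2 to replicate 1 in TMM-scaled CPM (8884 genes, bins of 0.25, 3 genes beyond 8 not drawn); bottom, the same ratio for the 5 genes with exact 95% intervals of counting error, and dashed lines at 2-fold. Hebp1, at -2.79, is the point farthest from 0, and the interval of Hmox2 crosses 0.

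TPM and CPM gave unlike replicate differences for the heme oxygenases. For Hmox1 replicate 1 was 2.33 times replicate 2 in TPM but 1.61 times in CPM. The estimated effective length of the gene was 968 bases in replicate 1 and 1288 bases in replicate 2. For Hmox2 replicate 2 was 3.28 times replicate 1 in TPM but 1.33 times in CPM, with effective lengths of 1446 and 539 bases. TPM divides counts by these lengths, which follow the estimated mix of transcripts, so the transcript shares below enter the levels. With the deposited TPM in place of CPM, Hmox1 was lower by 1.22 and Hmox2 higher by 1.71 on the log2 scale, both beyond 2-fold, and with total counts Hmox1 was at -1.08.

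The leading Blvrb transcript differed between the libraries, while the gene's total differed 1.22-fold in TPM. Blvrb-201, the transcript of 5 exons and 206 codons, held 78.94% of the gene's TPM in replicate 1 and 7.59% in replicate 2. Blvrb-202, also of 5 exons, held 0.45% and 65.48%. The coding part of Blvrb-202 has 120 codons, opens in the frame of Blvrb-201 and lacks its first 86 codons, which include those encoded by the first exon of Blvrb-201. Blvrb-203, which keeps 142 bases of intron between exons 2 and 3 of Blvrb-201 and has 247 codons, held 11.47% and 25.26%. Blvrb-204, a transcript of 3 exons, held 9.04% and 1.60%, and the noncoding Blvrb-205 0.11% and 0.07%.

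Grouped by start, the 3 transcripts that begin at 27447978 to 27448054 summed to 3564 and 1015 TPM. The 2 that begin at 27452418 and 27452444, the first of them 4440 bases downstream, summed to 19.9 and 1931 TPM. The downstream share was thus 0.556% in replicate 1 and 65.6% in replicate 2, a difference of 65.0 percentage points, and 64.8 points with posterior means. This grouping was chosen after the values were seen. Within the upstream group Blvrb-203 went the other way, with 411.1 and 744.18 TPM. The deposited posterior SD of the counts of Blvrb-202 was 349 on a mean of 1073 in replicate 1 and 84.9 on a mean of 14073 in replicate 2, so the model's own error was far smaller than the difference.

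Blvrb-201 and Blvrb-202 share 3 exons whole and differ in the first exon, of 219 and 133 bases, and in the 3′ end, which runs 160 bases further in Blvrb-201. Blvrb-203 has an upstream start but ends at 27465998, close to Blvrb-202 at 27465984, whereas Blvrb-201 ends at 27466144. The shares of Blvrb-202 and Blvrb-203 were both higher in replicate 2. Among these transcripts the shares thus went with the 3′ end, and not with the start alone. Coverage along the gene was not analysed here, so whether reads of the first exon or of the 3′ end set the shares was not tested. The lengths of all 5 Blvrb transcripts in the tables equal those in the annotation used for names.

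**Figure D3:**
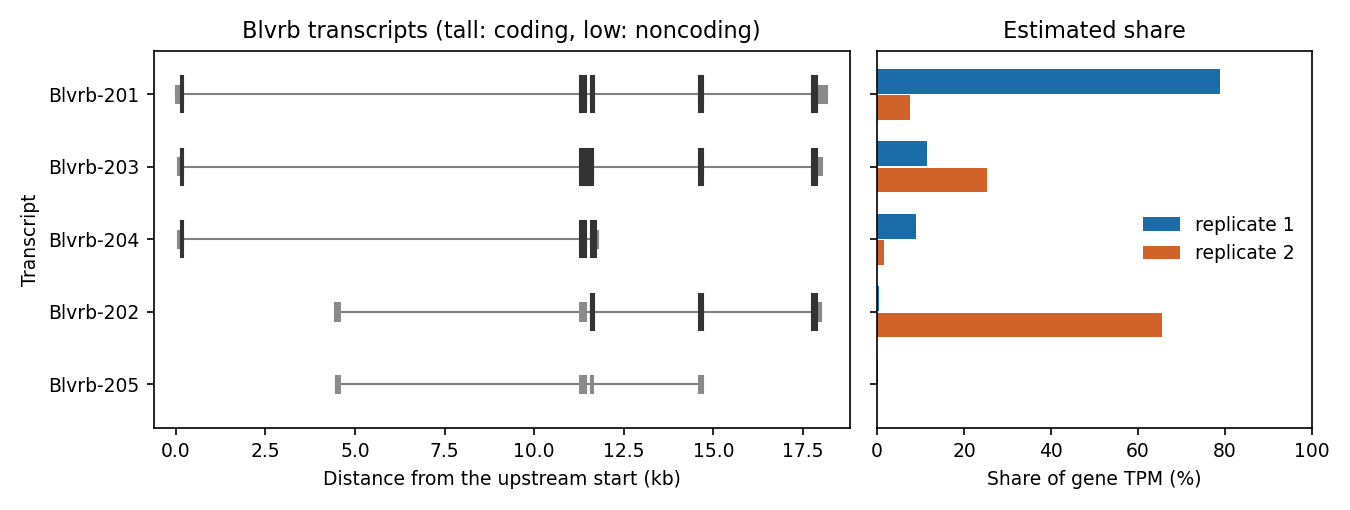
Left, the 5 annotated Blvrb transcripts by distance from the upstream start in kb (tall boxes coding, low boxes noncoding exon, lines intron); right, the share of the gene's TPM each held in replicate 1 (blue) and replicate 2 (orange). The longest blue bar is that of Blvrb-201 (78.94%, against 7.59% in replicate 2), and the longest orange bar is that of Blvrb-202 with its downstream start (65.48%, against 0.45% in replicate 1).

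Such differences were common between these libraries. Of 3060 genes with at least 10 TPM in both libraries and more than 1 transcript, 32.3% had a different leading transcript in each. Of the genes described here Blvrb and Hmox1 entered that set, and the leading transcript differed in Blvrb. In 10.8% of the 3060 genes the 2 leading transcripts also began at least 1000 bases apart, as they did in Blvrb. The share of TPM placed on other transcripts in one library than in the other was 78.8% for Blvrb, at the 95.7th percentile of the 3060 genes, whose median was 23.3%. For Hmox1 it was 28.4%, at the 57.1st percentile. Among the 988 genes whose leader differed, the leader in replicate 2 was the shorter transcript in 563 and the longer in 423.

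Hmox1-201, the coding transcript of 289 codons, led Hmox1 in both libraries. It held 53.66% of the gene's TPM in replicate 1 and 82.08% in replicate 2. Hmox1-202, annotated as retaining an intron, held 46.34% and 17.92%, from 584.54 and 16.60 counts with posterior SDs of 26.0 and 6.53. The coding transcript alone stood at 24.29 and 15.96 TPM, closer to each other than the totals. In the tables Hmox1-201 has 1606 bases and Hmox1-202 has 556, against 1569 and 774 in the annotation used for names. The other Hmox1 transcript of the tables had no name there and held 0 counts in both.

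Hmox2 shares rested on few counts. Hmox2-201, with 315 codons, led in replicate 1 with 79.39% from 83.15 counts and held 22.06% in replicate 2 from 12.44 counts. Hmox2-206, a transcript of 354 bases whose annotated end is incomplete, led in replicate 2 with 75.64% from 5.98 counts and held 0% in replicate 1. The higher TPM of Hmox2 in replicate 2 thus came with 5.98 counts placed on a short transcript. Hmox2-203 held 11.25% in replicate 1 and 0% in replicate 2, and Hmox2-204 held 9.36% and 2.29%. Blvra-201 held 99.52% and 100% of Blvra, and Hebp1 has a single transcript in the tables.

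**Figure D4:**
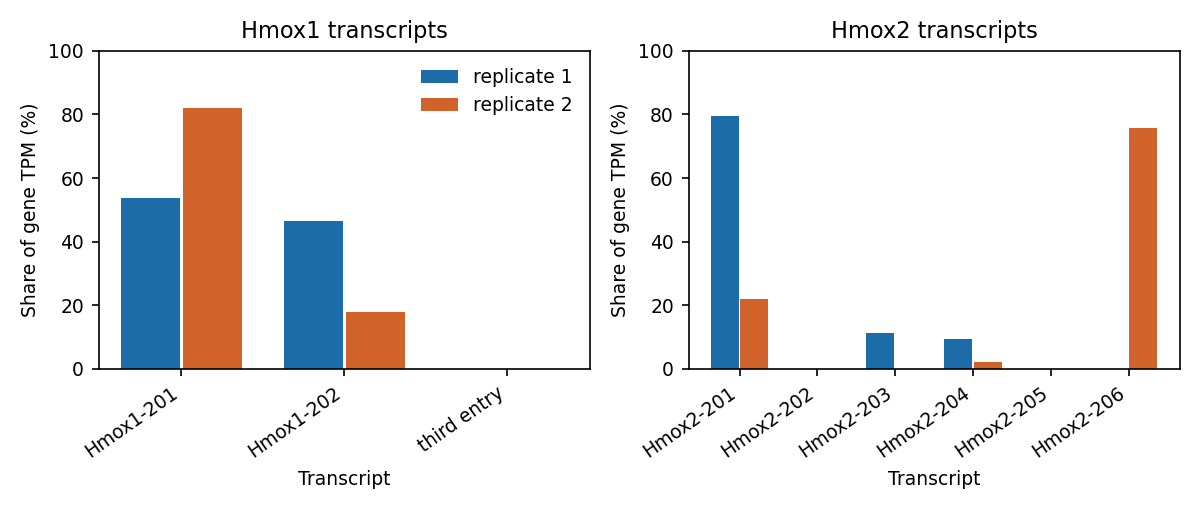
Share of gene TPM (%) held by each Hmox1 transcript (left) and each Hmox2 transcript (right) in replicate 1 (blue) and replicate 2 (orange). Hmox1-201 leads in both libraries with 53.66% and 82.08%, while Hmox2 is led by Hmox2-201 in replicate 1 and by Hmox2-206 in replicate 2. The bar place marked as the third entry is the Hmox1 transcript without a name, at 0 in both.

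Around these genes, 37 of 51 listed genes of heme handling and its control reached 1 TPM in both libraries, against 17.2% of all genes. The lists were chosen with earlier results of these data known, so this share is a description of the lists. Of the 37 that could be compared between the libraries, 7 were at least 2-fold lower in replicate 2, against 30.0% of all genes compared, and 5 at least 2-fold higher, against 17.9%.

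Of 9 partners of heme degradation 6 were detected. The ferritin genes, whose proteins store iron, were the highest: Ftl1 had 36461 and 44082 TPM, and Fth1 had 17305 and 30022 TPM. Reads of both may be shared with near-identical copies, so these levels are uncertain. Por, the reductase that feeds electrons to heme oxygenase, had 132.62 and 517.19 TPM, above Hmox1 in each. In CPM Por had 249 and 432, a log2 ratio of 0.79, short of 2-fold. The bilirubin-conjugating gene Ugt1a1, the exporter gene Abcc2 and the liver uptake gene Slco1b2 had 0 counts in both libraries. All 3 are genes of bilirubin handling in liver. The median log2 ratio of the 6 was 0.00, or -0.40 with total counts, and 1, Pgd, was called lower, against 30.0% of all genes compared.

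Of 9 heme transport genes 7 were detected. Tmem14c, needed for porphyrin import into mitochondria, had 1072 and 558 TPM, the mitochondrial transporter gene Abcb10 had 429 and 728 TPM, and Slc48a1, which moves heme out of endosomes and lysosomes, had 60.85 and 122.07 TPM. Flvcr2 had 0 counts in both. The median log2 ratio of replicate 2 to replicate 1 was -0.78. Abcg2 and Abcb6, 2 of the 7, were called lower, and 1, the heme exporter gene Flvcr1, higher. Of all genes compared, 30.0% were called lower and 17.9% higher. With total counts the median was -1.18, and 4 were called lower and 0 higher, against 3570 and 944 of all 8895 genes compared. Among 8 other heme binders and carriers 3 were detected. Pgrmc1, which encodes a heme-binding membrane protein, had 19.07 and 26.41 TPM, Pgrmc2 had 11.28 and 6.78 TPM, and Gstp1 had 12.98 and 4.56 TPM. The plasma heme and hemoglobin scavenger genes Hpx and Hp had at most 1 count. In replicate 1 Hebp1 was higher than each of these binders, and in replicate 2 it was below Pgrmc1.

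Of 11 regulators of Hmox1 9 were detected. BACH1 represses Hmox1 until heme binds it, and NRF2, the product of Nfe2l2, activates it, each with a small MAF partner. Bach1 had 43.70 and 28.22 TPM, and Nfe2l2 had 21.96 and 13.98 TPM. Bach1 was 1.99 times Nfe2l2 in replicate 1 and 2.02 times in replicate 2, a log2 ratio of 1.00 ± 0.01. In TMM-scaled CPM, which is not per length, that log2 ratio was 2.32. The small MAF genes Mafk and Mafg had 213 and 150 TPM, and 105 and 246 TPM. In CPM Mafg had 176 and 182. Eif2ak1, the heme-regulated kinase of translation, had 111 and 138 TPM, and Bach2 had 0 counts. The median log2 ratio of the 9 compared was 0.05, with Maff called higher, against 17.9% of all genes compared. With total counts it was -0.35, and 0 were called higher, against 944 of all 8895 genes compared.

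Of 9 other NRF2 targets 7 were detected, and their median log2 ratio of replicate 2 to replicate 1 was 0.88, or 0.48 with total counts, against -0.69 for Hmox1. Gclm, a subunit of the enzyme that makes the glutathione precursor, had 910 and 5275 TPM, Txnrd1 had 78.52 and 206.74 TPM, and Srxn1 had 52.77 and 34.22 TPM. Srxn1 was thus lower in replicate 2 in TPM, while its log2 ratio in CPM was 0.85. Gclm, Txnrd1 and Me1 were called higher in replicate 2, 3 of the 7, against 17.9% of all genes. With total counts 2 of the 7 were called higher and 1 lower, against 944 and 3570 of all 8895 genes compared. Gclc, named after its values were seen, was at -0.71, close to Hmox1. Slc7a11 had 2 counts in replicate 1 and 0 in replicate 2. A test of the difference between Hmox1 and this list was not made.

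Of 5 genes for other hemoproteins and their reductase all 5 were detected. Cat, the heme enzyme catalase, had 368 and 524 TPM, but 469 and 399 CPM. Cyb5r3, the flavoprotein that reduces cytochrome b5, had 129 and 106 TPM. Cyb5a, cytochrome b5 itself, had 74.26 and 2.82 TPM. Cycs, cytochrome c, had 2.40 and 1.12 TPM and has processed copies that can take its reads. The median log2 ratio was -1.70, with Cyb5a, Cyb5b and Cycs called lower in replicate 2, against 30.0% of all genes compared. In that library Cyb5a and Cycs had 16 and 6 counts. Among erythroid markers, Alas2, which encodes the first enzyme of erythroid heme synthesis, had 320.57 and 75.97 TPM. In CPM it had 212 and 128, a log2 ratio of -0.73, short of 2-fold. The erythroid factor gene Klf1 had 665 and 2351 TPM. Over the 8 erythroid markers the median log2 ratio was -0.30, with 2 called lower and 1 higher. Of all genes compared, 30.0% were called lower and 17.9% higher. Whether any of these genes had a part in the difference of Hebp1 was not tested.

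**Figure D5:**
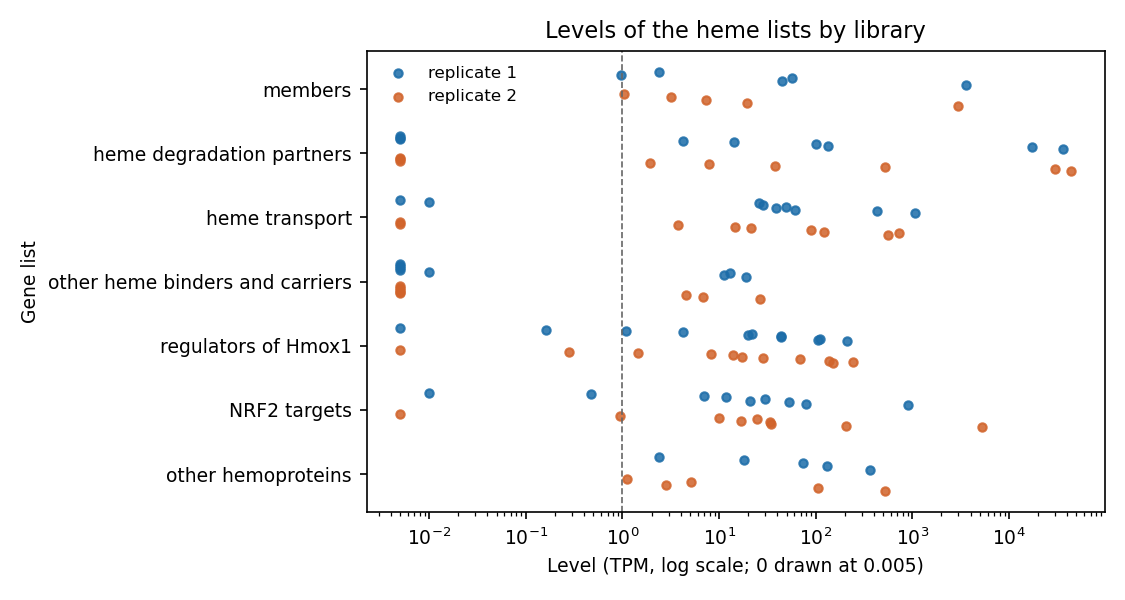
Level in TPM (log scale, 0 drawn at 0.005) of each gene of the 7 lists in replicate 1 (blue) and replicate 2 (orange), with a dashed line at 1 TPM; "members" are the 5 genes described here. The ferritin genes lie at the right end of the heme degradation partners, and 4 of the 8 other binders and carriers are at 0 in both libraries.

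Genes most like each of the 5 were sought by the distance between pairs of log2 TPM values over the 2 libraries, among 7107 coding genes detected in both. The nearest to Blvrb was Gata1 (distance 0.24), followed by Oaz1 (0.36). Mcm4 (0.05) and Neu1 (0.05) were nearest to Hmox1, Slc8b1 (0.12) and Rpap2 (0.12) to Hmox2, and Snx19 (0.06) and Klhl36 (0.08) to Blvra. Tnpo3 (0.12) and Dnajc13 (0.14) were nearest to Hebp1: Tnpo3 had 58.28 and 6.84 TPM. With 2 libraries this likeness is no more than a like pair of levels.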

How the data were processed

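Per the file headers, the authors deposited estimated counts (expected count and posterior mean), TPM and FPKM for each gene and transcript, and the percent of its gene's TPM for each transcript. Per the labels and the text deposited with the tables, they used mm10, GENCODE M4 and alignments to transcripts; no source used here names the aligner, the quantifier or the use of strand. Names and positions came from GENCODE M21 by identifier without version. Of 69691 entries, 43346 were genes; the rest held 3 and 0 counts and were left out.

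Expected counts were rounded and scaled by TMM (edgeR 4.0.16; factors 1.15 and 0.871). Ratios of counts carry exact Clopper-Pearson intervals, and log2 ratios of TPM a pseudocount of 0.1. The CPM ratios of all genes behind the median, the percentiles and the histogram also had 0.1 added. No test across genes was made, since the labels give 1 group. Genes were named by rule: all 5 genes, the 3 highest and the lowest of each list, genes of the 6 pairs, the 2 nearest in level and transcripts with at least 5%; others were named after their values were seen. The genes and lists were chosen with earlier results of these data known. Alternatives were DESeq2 1.42.0 size factors, total counts, TPM or FPKM, posterior means, coding transcripts, other minimum levels, folds and pseudocounts, each replicate alone and, added after seeing the data, TMM without globin and mitochondrial genes. Python 3.11.15 and R 4.3.3 were used. 1 erythroid marker is not reported here by name.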

Additional observations from a re-analysis of the deposited data

How the results depend on the processing

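Of 117 recomputed values for 21 results, 99 were labelled as the same. For a ratio or a level this meant the same direction and side of the threshold, or a move of less than the replicate SD. Counts of genes have no replicate SD, and 2668 genes lower against 3570 with total counts was also labelled as the same. Part of the 99 were fixed in advance. With n = 2, a level or log2 ratio of TPM from 1 library always lies within the replicate SD of the mean. Hebp1 at 7.40 TPM in replicate 2 alone, against a mean of 32.1 TPM, was counted so. Minimum levels cannot change the ratio of a single gene. The tally is therefore no measure of stability. The log2 ratio of Blvrb to Blvra was 10.27 with a pseudocount of 1. The log2 ratio of Fth1 to Ftl1 turned from -0.81 to 3.54 with coding transcripts alone, where 4 of 5 Ftl1 transcripts, with 90.6% and 97.4% of its TPM, had no match in the annotation used for names. Genes at least 2-fold lower in replicate 2 numbered 2668, but 3570 with total counts, 6315 with no minimum and 1348 with a mean of at least 10 CPM. Genes at least 2-fold higher numbered 1594, but 944 with total counts, 3939 with no minimum and 2464 at a fold of 1.5. Total counts moved the median log2 ratio of all genes from -0.20 to -0.61 and the share of calls that were lower from 62.6% to 79.1%. Hebp1 was between -3.18 and -2.72 under the 5 scalings, and 2-fold lower in each. Blvra was short of 2-fold with DESeq2 size factors alone, and Hmox1 passed it with total counts and deposited TPM. The downstream share of Blvrb was 0.800% and 65.6% with posterior means. The levels of Hmox2 and Blvra are limited by 19 and 12 counts in replicate 2. No paired analysis was possible because the labels give 1 group.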
